A study of Mus musculus with 38 samples.

Results

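Wild type mouse retina at 18 months of age was compared with wild type retina at 12 months. The comparison used the 6 bulk RNA libraries that carry these labels, 3 per age, of 38 samples in the series and 15 libraries with deposited counts. Both groups were whole retina labelled wild type for Kdm3b, which encodes a histone H3 lysine 9 demethylase. The labels give no strain, sex or treatment, and do not say whether the 3 replicates of an age came from separate animals, so the p-values reflect the spread between samples, which may be technical. The other libraries with counts were wild type retina at 1 and 6 months and retina heterozygous for Kdm3b at 12 months, 3 of each. They are given as levels and take no side in the comparison. Of 142699 Ensembl transcripts in the deposited table, 85146 had a count in at least 1 of the 6 libraries. The 4045 with a mean of at least 50 CPM over the 6 were examined, where CPM are counts relative to the library total after median-ratio scaling. The lowest mean kept was 50.04 CPM, the highest left out was 49.99 CPM, and the median was 87.5 CPM.

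The retina is layered neural tissue in which rod photoreceptors outnumber every other cell type, and rod transcripts make up much of its messenger RNA. Ageing of the mouse retina is known for a gradual loss of photoreceptors and ganglion cells, for reactive changes in Müller glia, and for activation of microglia and complement genes. In bulk retina, fewer cells of a type and less RNA per cell cannot be told apart. The deposited table lists transcripts by Ensembl identifier only, and 0 of its identifiers occur in the name tables used here. The measurements below therefore stand for transcripts without gene names. The tissue label could not be checked against marker genes, and 22 lists of cell type markers and pathways could not be read.

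Given here by library are the transcripts with the lowest p in each direction among those whose ages did not overlap. They were limited to 2 per direction because no names could be given. Their separate values in the 2 ages are therefore a condition of the choice. Small SDs and SEs are favoured by it too, and they do not describe the transcripts at large. ENSMUST00000212129 was at 96.2, 90.1 and 108 CPM in the 3 libraries at 18 months and at 49.9, 43.7 and 40.5 CPM at 12 months. ENSMUST00000051955 was at 107, 99.2 and 113 CPM at 18 months and at 55.7, 40.6 and 43.5 CPM at 12 months. In both, the lowest library at 18 months lay well above the highest at 12 months. The mean of ENSMUST00000212129 was 98.1 ± 9.11 CPM (SD, n = 3) against 44.7 ± 4.81 CPM, a log2 fold change of 1.13 (SE 0.136). The mean of ENSMUST00000051955 was 106 ± 6.99 CPM (SD, n = 3) against 46.6 ± 8.01 CPM, a log2 fold change of 1.19 (SE 0.156).

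On the lower side, ENSMUST00000030606 was at 86.6, 86.3 and 81.3 CPM at 18 months and at 135, 138 and 140 CPM at 12 months. ENSMUST00000005234 was at 96.8, 91.8 and 85.7 CPM at 18 months and at 145, 151 and 147 CPM at 12 months. The 3 libraries of each age lay close together in these transcripts, which a choice by lowest p favours, and the ages did not overlap, as the choice required. The mean of ENSMUST00000030606 was 84.7 ± 2.98 CPM (SD, n = 3) against 138 ± 2.33 CPM, a log2 fold change of -0.70 (SE 0.0876). The mean of ENSMUST00000005234 was 91.4 ± 5.53 CPM (SD, n = 3) against 148 ± 3.06 CPM, a log2 fold change of -0.69 (SE 0.0936). None of the 4 transcripts passed edgeR's quasi-likelihood test over the 4045 transcripts, with an adjusted p of 0.106 for each. Over 19 alternative analyses of each transcript the direction held, which the choice of separated ages in the same 6 libraries made likely beforehand. The adjusted p was under 0.05 in 6 of the 19. It ran from 1.01e-08 with DESeq2 to 0.625 with edgeR and all 15 libraries in the fit. Besides DESeq2, those under 0.05 were limma voom, which gave replicate 1 at 18 months a low weight, and analyses without that library.

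The 4 transcripts took different courses over the other ages, whose values the choice of transcripts did not use, though it did use those at 12 months. The following levels were scaled over the 12 wild type libraries. ENSMUST00000212129 was at 75.3, 138 and 140 CPM at 1 month and at 67.8, 145 and 132 CPM at 6 months. ENSMUST00000051955 was at 78.5, 163 and 90.8 CPM at 1 month and at 62.3, 126 and 101 CPM at 6 months. For these 2 transcripts every library at 1 and 6 months lay above every library at 12 months, so 12 months was the lowest of the 4 ages. ENSMUST00000030606 was at 107, 119 and 122 CPM at 1 month and at 102, 139 and 124 CPM at 6 months. ENSMUST00000005234 was at 133, 103 and 119 CPM at 1 month and at 121, 77.8 and 110 CPM at 6 months. For ENSMUST00000030606 all libraries at 18 months lay below all those at 1, 6 and 12 months. For ENSMUST00000005234 the levels at 18 months, 98.7, 91.6 and 85.2 CPM, overlapped those at 6 months and lay below those at 1 month and 12 months.

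**Figure D1:**
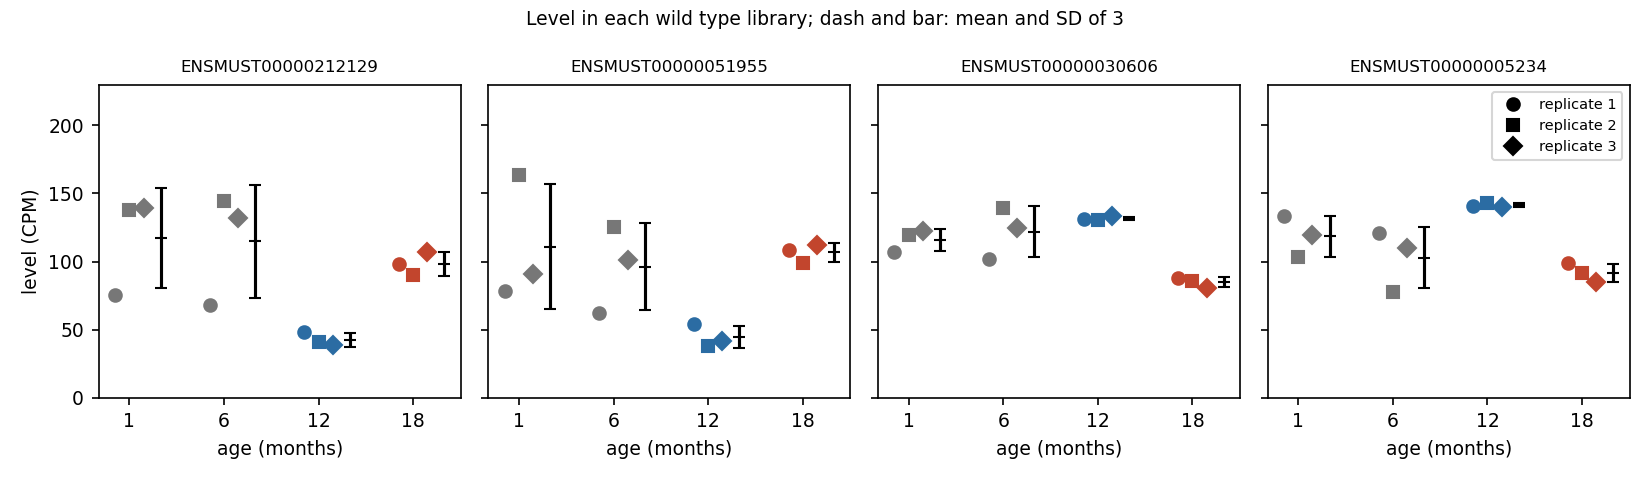
Level of the 4 transcripts in each wild type library, in CPM scaled over 12 libraries, against age in months. Points are single libraries and the dash and bar give the mean and SD of 3; the first 2 transcripts are lowest at 12 months, and for the third every library at 18 months is below every library of the other ages.

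In heterozygous retina at 12 months, with levels scaled over all 15 libraries, ENSMUST00000212129 was at 52.5, 28.1 and 91.5 CPM and ENSMUST00000051955 at 81.6, 31.8 and 103 CPM. ENSMUST00000030606 was at 111, 102 and 79.6 CPM and ENSMUST00000005234 at 120, 115 and 138 CPM. The heterozygous replicates differed among themselves by more than 2-fold in the first 2 transcripts, with replicate 2 below wild type retina of the same age and replicate 3 within the range of 18 months.

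Across all 4045 transcripts, most differences between the ages were small. The quartiles of the log2 fold change were -0.33 and 0.06, with a median of -0.14. Of the 4045, 2787 were lower and 1258 higher at 18 months by the sign of the fold change. The 3 libraries of one age lay wholly above the 3 of the other in 1292 transcripts (31.9%), of which 1035 were lower at 18 months (25.6% of those tested) and 257 higher (6.35%). If the 6 libraries were interchangeable, 10% of transcripts would separate on average. Transcripts vary together, so the share can lie far from 10% without a difference between ages. The median log2 fold change was -0.38 in the 1035 and 0.51 in the 257. In edgeR's test 0 transcripts (0%) passed at an adjusted p of 0.05, and the lowest adjusted p was 0.106. An unadjusted p under 0.05 was held by 984 (24.3%), 762 of them lower (18.8%) and 222 higher (5.49%). DESeq2 called 539 (13.3%), 404 lower (9.99%) and 135 higher (3.34%). limma voom with library weights called 2008 (49.6%), 1534 lower (37.9%) and 474 higher (11.7%). Its weights were 0.102, 1.59 and 1.88 for the 3 replicates at 18 months and 0.248, 2.49 and 5.29 at 12 months, so that replicate 1 of each age counted least.

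The excess of lower over higher transcripts depended on which transcripts set the scaling. The factors were set on the 30016 transcripts with reads in all 6 libraries, of which 86.7% averaged under 50 CPM, and against those the abundant transcripts had the median of -0.14. TMM, another scaling that is not confined to the 4045 transcripts, kept the excess. Its median was -0.13, with 959 separated transcripts lower at 18 months and 250 higher. With factors set on the 4045 alone, their median was put at 0.00 by construction. There 523 transcripts were separated and higher at 18 months (12.9%) and 494 lower (12.2%). The log2 fold changes of the 4 named transcripts were then 1.27, 1.33, -0.56 and -0.55, in the order given above. The excess therefore describes the 4045 transcripts relative to the wider set used for the factors. The direction of a transcript with a small change depended on this choice.

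**Figure D2:**
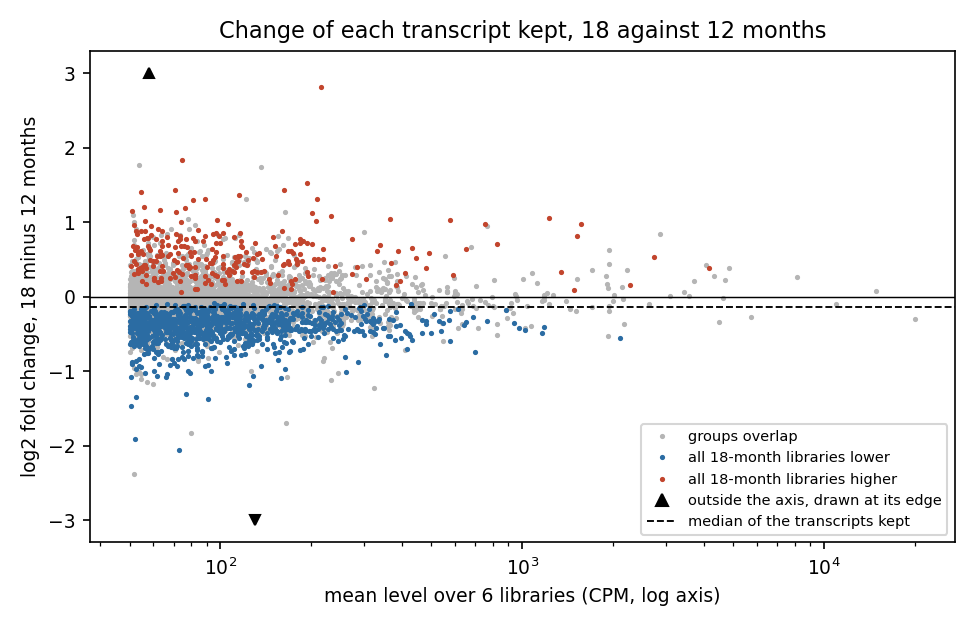
Log2 fold change of each of the 4045 transcripts, 18 minus 12 months, against its mean level over the 6 libraries in CPM on a log axis. Blue and red points are the 1035 and 257 transcripts whose ages did not overlap, the dashed line is the median of -0.14, and triangles mark 2 transcripts beyond the axis.

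The shift was present at most levels and smallest in the transcripts with the highest counts. The median log2 fold change was -0.15 in the 2361 transcripts from 50 to 100 CPM, -0.15 in the 1132 from 100 to 200 CPM, -0.13 in the 410 from 200 to 500 CPM and -0.07 in the 142 at 500 CPM or more. Separated and lower transcripts made up 24.9%, 28.4%, 25.9% and 14.8% of these classes, and separated and higher ones 5.84%, 6.8%, 7.07% and 9.15%. CPM is not corrected for transcript length, so the classes rank counts and not molecules.

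The transcript with the highest count was at 18042, 17960 and 17970 CPM at 18 months and at 17577, 24401 and 24622 CPM at 12 months. Its 3 values at 18 months were nearly equal, while replicate 1 at 12 months lay with them and the other 2 replicates above. The log2 fold change was -0.30 (SE 0.252), with an edgeR adjusted p of 0.499. Of the 10 transcripts with the highest counts, none had separated ages, and the edgeR adjusted p ran from 0.444 to 0.97.

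Changes of 2-fold or more were few. They were found in 63 transcripts, 31 higher and 32 lower at 18 months, and 41 of these had ages that did not overlap, 23 higher and 18 lower. Their edgeR adjusted p ran from 0.106 to 0.752. Among the separated ones the log2 fold change ran from -2.06 to 2.81. The highest belonged to a transcript at 594, 353 and 189 CPM at 18 months and at 48.4, 3.88 and 110 CPM at 12 months, which varied widely within each age. At least 1 library had 0 reads in 14 of the 63, and 9 of the lower ones had 0 reads in replicate 1 at 18 months only. The largest fitted value came from a transcript at 348 CPM in that replicate and 0 reads in the other 5 libraries, which passed the minimum through 1 library and is no difference between ages.

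The 6 libraries did not group by age alone. Replicates 1 to 3 held 19405272, 17218208 and 19085178 counts at 18 months. At 12 months they held 16009261, 9732001 and 9604683, so depth and age cannot be told apart for replicates 2 and 3 at 12 months. Across the 4045 transcripts, Pearson's r of log2(CPM + 1) was 0.965 between replicates 2 and 3 at 18 months and 0.959 between replicates 2 and 3 at 12 months. Replicate 1 at 18 months correlated at 0.709 and 0.733 with the other libraries of its age and at 0.738 to 0.75 with those at 12 months. The other pairs lay between 0.847 and 0.896. Transcripts are not independent replicates, and these values are a description.

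**Figure D3:**
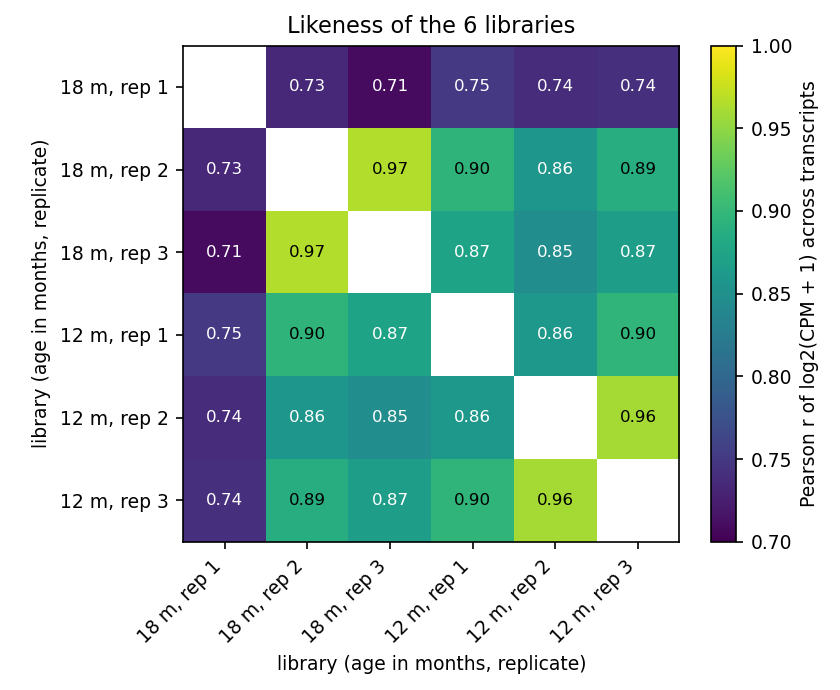
Pearson's r of log2(CPM + 1) between each pair of the 6 libraries across 4045 transcripts, with libraries named by age in months and replicate on both axes. Replicate 1 at 18 months has the lowest values, 0.71 to 0.75, and the 2 pairs of replicates 2 and 3 the highest, 0.96 and 0.97.

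Replicate 1 at 18 months differed more than 2-fold from the mean of the other 2 replicates in 8.28% of the transcripts, 217 below and 118 above. The share was 2.4% and 2.79% for replicates 2 and 3 of that age and 0.667% to 2.55% at 12 months. It had 0 reads in 29 of the 4045 transcripts, all of which had reads in the other 5 libraries, and none of those 5 had more than 7 at 0. Of the 4045, 234 had whole expected counts in all 6 libraries, to within 0.01 of a count. Reads shared between transcripts usually leave fractions, but whether any were shared in these was not tested. In these, replicate 1 at 18 months differed more than 2-fold in 3.85%, against 0.427% and 0.855% for replicates 2 and 3 of that age. At 12 months the share in these was 0.855% to 1.71%, and each of the 6 libraries had 0 transcripts without reads. The median SD of log2 CPM within an age was 0.205 at 18 months and 0.146 at 12 months, and it was 0.069 and 0.0632 without replicate 1 of the respective age.

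The number of transcripts called by edgeR turned on replicate 1 at 18 months. Without it, 882 transcripts (21.8%) passed, 667 lower (16.5%) and 215 higher (5.32%) at 18 months, and all 4 named transcripts were among them, with edgeR adjusted p of 0.0121 to 0.0136. The median log2 fold change was -0.60 in the lower and 0.73 in the higher calls, and 76 of the 882 changed 2-fold or more, 39 lower and 37 higher. With scaling on the 4045 transcripts alone, 700 passed, 322 lower and 378 higher, so this split too depended on which transcripts set the scaling. With TMM scaling it was 468 lower and 225 higher. Leaving out any other library gave 0 calls. With replicate 1 of both ages left out, 2060 (50.9%) passed, on 2 libraries per age of which those at 12 months were shallow. Among the 234 transcripts with whole counts, with all 6 libraries, 32 (13.7%) passed edgeR's test, 28 lower and 4 higher.

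The library left out had no part in those calls, but its ratios and theirs share the 12-month libraries, so the choice of transcripts by itself moves its ratios toward the calls. For the 667 lower calls the median log2 ratio to 12 months was -0.22 in replicate 1 at 18 months and -0.57 in replicates 2 and 3, where all 4045 transcripts had -0.17 and -0.13. In replicate 1 the lower calls thus lay close to the median of all transcripts. For the 215 higher calls it was 0.18 in replicate 1 and 0.73 in the other 2, against the same -0.17 and -0.13 for all 4045. In replicate 1 the higher calls thus lay farther from the median of all transcripts than the lower calls did. The values are given side by side and nothing is read from their shared sign.

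With counts of every library thinned to the shallowest of the 6, edgeR called 0 transcripts, 949 had an unadjusted p under 0.05, and 981 lower and 268 higher transcripts were separated. With replicate 1 as the only 12-month library, the 4 libraries left were of similar depth, and the lone library was assumed to vary like those at 18 months. There edgeR called 0, 294 transcripts (7.27%) had an unadjusted p under 0.05, and the median log2 fold change was -0.09. The libraries of lower depth all belonged to 12 months, so no comparison could be made within them.

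The 1292 separated transcripts were read in the libraries of the other groups. Those libraries had no part in the choice, but each ratio below is taken to the 12-month libraries that did. Levels were scaled over the 12 wild type libraries and averaged as logs. The medians of -0.38 and 0.51 given earlier came from the fit to the 6 libraries, so those below differ from them. A transcript chosen because it was low at 12 months will tend to lie above that level in any other library, so the sign of these ratios is partly fixed by the choice. For the 257 higher at 18 months, the median log2 ratio to wild type at 12 months was 0.37, 0.47 and 0.40 in the 3 libraries at 1 month and 0.30, 0.45 and 0.50 at 6 months, against 0.58 at 18 months. All 4045 transcripts had medians of -0.06 to 0.01 in those 6 libraries and of -0.08 at 18 months.

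For the 1035 lower at 18 months, the median log2 ratio to 12 months was -0.16, -0.18 and -0.13 at 1 month and -0.17, -0.20 and -0.20 at 6 months, against -0.31 at 18 months. The medians at both earlier ages lay between 0 and the median at 18 months in each set. This position too is partly fixed by the choice, which used the values at 18 months as well as those at 12 months. The wild type libraries at 1, 6 and 18 months all held 17169253 counts or more, and all 3 at 12 months held fewer; the part of depth in these levels was not tested.

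**Figure D4:**
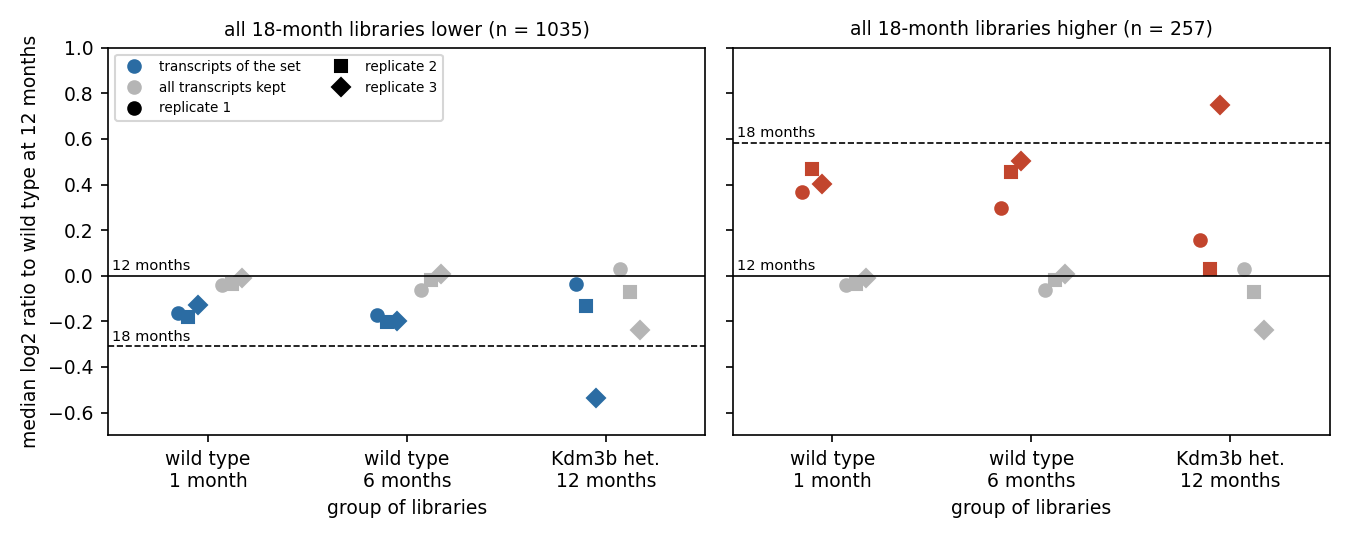
Median log2 ratio to the wild type mean at 12 months in each library of 3 other groups, for the 1035 transcripts lower (left, blue) and the 257 higher (right, red) at 18 months, with all 4045 transcripts in grey. The solid line is 12 months and the dashed line the median at 18 months. The coloured points at 1 and 6 months lie between the lines in both sets, a position partly fixed by the choice of the sets.

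Heterozygous retina at 12 months differed between its replicates, and its ratios share the same wild type libraries, here with scaling over all 15 libraries. In the 257 higher transcripts the median log2 ratio to wild type of that age was 0.16, 0.03 and 0.75 in its 3 replicates, and in the 1035 lower ones -0.04, -0.13 and -0.54, where all 4045 had 0.03, -0.07 and -0.24. Replicates 1 and 2 had medians nearer to wild type of the same age, and replicate 3 had medians beyond those at 18 months. Replicate 3 also had 0 reads in 59 of the 4045 transcripts, against 5 and 3 in replicates 1 and 2. This was not particular to it. In wild type retina 3, 79 and 46 were at 0 in the 3 replicates at 1 month and 5, 83 and 21 at 6 months. None of these libraries took part in setting the minimum of 50 CPM.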

How the data were processed

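Per the labels' protocols, retinal RNA was isolated with Trizol and polyadenylated RNA went into a stranded library kit. The submitters' processing notes list RSEM 1.3.3, STAR 2.7.1a, Trim Galore 0.6.6, edgeR 3.36.0, DESeq2 1.32.0 and CASAVA with no role for any, and the builds GRCm38 and mm10. Annotation release and strand setting: not given in the sources used here. In the deposited table are the authors' expected counts per Ensembl transcript, unscaled, in which reads are shared between overlapping transcripts; they were rounded here. Counts were scaled with median-ratio factors over the 6 libraries and tested with edgeR 4.0.16 (quasi-likelihood, robust, 4 residual degrees of freedom; R 4.3.3) on the 4045 transcripts averaging 50 CPM or more, with Benjamini-Hochberg adjustment and a threshold of 0.05. Standard errors were derived from the fold change and F, an approximation. Ratios to other groups used means of log2(CPM + 1). The rule named transcripts with the lowest p whose ages did not overlap, 2 per direction. The edgeR test was first checked on simulated data with the spread estimated per transcript and 200 transcripts changed. It recovered 56.5% of 2-fold changes with 4 false calls, and 97% of 4-fold changes with 8. Smaller changes were not simulated, and no simulated library was made to stand apart. Alternatives were DESeq2 (1.42.0), limma voom (3.58.1), other scaling, filters and libraries. The members and lists were chosen with earlier results of these data known. Whether same-numbered replicates were handled together is not stated in the labels, and the main test treated them as unpaired. Deviations of same-numbered libraries correlated at -0.02, -0.11 and 0.02, which cannot settle it. All pairs of the 6 libraries differed beyond counting noise, by at least 12.8 times its variance. The 23 samples of other assays were not analysed here, and no sequence was matched to a transcript.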

Additional observations from a re-analysis of the deposited data

How the results depend on the processing

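In all, 21 alternatives were run: 9 fixed at the outset, 6 that leave out 1 library each, and 6 chosen after seeing the data. The 4 named transcripts had 76 alternative values, of which 24 newly passed the threshold, 52 stayed on the same side and 0 changed sign. Since the 4 were chosen for separated ages, a change of sign was unlikely from the start. The count of 0 calls moved to 539 with DESeq2, 2008 with limma voom, 8 with no filter and 32 with whole counts only. It moved to 2060 with replicate 1 of both ages left out and, without replicate 1 at 18 months, to 693 with TMM scaling (468 lower, 225 higher) and 700 with scaling over the kept transcripts. Leaving out 1 library gave 0 to 882. TMM with all 6 libraries, all 15 libraries in the fit, minimums of 10 and 200 CPM, thinning and the deep libraries alone left 0. The median log2 fold change of -0.14 moved by more than the spread between libraries to -0.069 with all 15 libraries, 0.00046 with no filter, -0.20 with whole counts only, -0.087 with deep libraries only and -0.19 with replicate 1 of both ages left out. By construction it was 0.0042 with scaling over the kept transcripts, and -0.0025 with 18-month replicate 1 left out as well. It ran from -0.18 to -0.13 over the libraries left out in turn. The replicate block left 0 calls of edgeR's test and 843 transcripts with an unadjusted p under 0.05, against 984 without it. Only 251 had one with all 15 libraries in the fit. The summed-gene test was not run, since no table paired transcripts with genes. Except where the construction shows it, the cause was not tested.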

Other observations

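In a few transcripts replicate 1 stood apart from replicates 2 and 3 at both ages. Both replicate 1 libraries lay at least 2-fold below all 4 others in 9 of the 4045 transcripts and at least 2-fold above them in 2. These 11 were chosen for that pattern after their values were seen, and only their levels at 1 and 6 months are independent of it. Of the 2, the transcript with the highest count was at 6987 CPM in replicate 1 at 18 months against 1847 and 2326 CPM in replicates 2 and 3, and at 4669 against 829 and 448 CPM at 12 months. In the earlier ages it was at 6031 against 793 and 509 CPM at 1 month and at 5901 against 617 and 743 CPM at 6 months. Of the 9, the transcript with the highest count was at 606 against 5979 and 8970 CPM at 18 months and at 492 against 10424 and 6928 CPM at 12 months. It was at 1237 against 2055 and 2151 CPM at 1 month and at 266 against 1856 and 1020 CPM at 6 months. In these 2 transcripts replicate 1 of all 4 wild type ages lay apart from the other replicates on the same side. Of the 11, replicate 1 lay beyond both other replicates, on the side that chose the transcript, at 1 and at 6 months in 7. The same share over all 4045 transcripts is not given here, so nothing is read from the 7. Over all 4045 transcripts the deviations of replicate 1 at 12 and 18 months correlated at -0.02. That value covers 2 ages only, and replicate 1 at 1 and 6 months was not compared over all transcripts. How far the pattern extends was therefore not settled. What replicate 1 libraries have in common is not stated in the labels.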
